A study of Mus musculus with 9 samples.

Results

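Small nucleolar RNAs (snoRNAs) guide the chemical modification and processing of ribosomal RNA, and in mammals most of them are cut out of the introns of longer host transcripts. Several hosts encode no protein of known use. Their spliced RNA is exported to the cytoplasm, meets ribosomes at a short or meaningless reading frame and is degraded by nonsense-mediated decay, the surveillance route that removes transcripts whose translation stops early, so that in cell culture these RNAs are known to accumulate when translation or that decay route is blocked. Many of them belong, with the ribosomal protein mRNAs, to the 5′-terminal oligopyrimidine (TOP) class, whose transcripts start with a C followed by a run of pyrimidines and whose translation is governed by mTORC1.

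Such hosts were named by symbol for this description: *Gas5*, *Snhg1*, *Snhg3*, *Snhg5*, *Snhg6*, *Snhg8*, *Snhg12*, *Snhg15*, *Snhg17* and *Zfas1*. Of these 10 genes, 5 were found in the count table of 26858 genes under these symbols. Another 3 were found under older names with the same coordinates, *Snhg15* as *Gm11974*, *Snhg17* as *9430008C03Rik* and *Zfas1* as *1500012F01Rik*. No row matched *Snhg3* or *Snhg8*, and their transcript levels were not analysed here. The 8 matched genes all passed the filter on low counts, which left 14990 genes. The choice was made by name and not by any measured value, although it was made with earlier results of these data known. Sensitivity to a translation block was not measured in these samples, since no inhibitor was part of the design.

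The cells were SIX2 nephron progenitors of the mouse cap mesenchyme at age E18.5. Both groups carried the *Six2-eGFP/cre* transgene, in which a *Six2* promoter drives a fusion of eGFP and Cre recombinase, and cells were sorted by eGFP. Cre deleted floxed *Qpc* (*Uqcrq*), which encodes subunit VII of mitochondrial complex III. Controls were *Six2-Qpc*+/-, with 1 intact allele left (n = 4, replicates 71, 72, 73 and 76), and mutants were *Six2-Qpc*-/- (n = 5, replicates 74, 75, 77, 78 and 79), so that every library came from cells with Cre and at least 1 deleted allele. The eGFP gate takes any cell in which the transgene is on or the protein persists. The labels do not say whether each library came from a separate animal, and p-values measure the spread between these libraries.

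Library totals ranged from 22571729 to 23691130 counts in controls and from 21040536 to 23986458 in mutants. *Uqcrq* fell from 94.1 ± 13.3 CPM (counts per 1000000 of the normalized library size; mean ± SD) to 21.3 ± 4.45, a log2 fold change of -2.14 ± 0.16 (SE; edgeR, adjusted p = 2.09e-05), with no overlap of the genotypes. Summed progenitor markers lay between 2055 and 2520 CPM in controls and between 2039 and 2488 CPM in mutants, and edgeR called 0 of the 8 (3 had an unadjusted p under 0.05, DESeq2 called 0 and limma-voom 2). From earlier results of these data, control 76 and mutant 74 were known to lie nearest to the other genotype, and the count of hosts below is also given without both. In bulk RNA of this kind, more cells of a type and more RNA per cell cannot be told apart.

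The letters around the annotated starts show which hosts have a TOP-like tract there by a fixed rule. The starts used in these cells were not mapped, so a missing tract does not show that a transcript lacks one. The sequences below are RefSeq annotation on GRCm38.p6, the mm10 assembly, each of 60 bases 5′ to 3′ on the strand of the gene, with the annotated first base of the transcript at position 31. Capitals mark a C followed by at least 4 pyrimidines that begins near the start. *Gas5*, *Snhg12* and *Snhg5* are shown as measured hosts with such a tract. *Snhg1* and *Snhg15* are shown as measured hosts without one by this rule. *Snhg17* (log2 fold change 0.62) and *Zfas1* (0.59), not shown, had none either. A run of pyrimidines lies just after the annotated start of *Snhg1*, but no C in it is followed by at least 4 pyrimidines.
Gas5, chr1:161035136-161035195, plus strand: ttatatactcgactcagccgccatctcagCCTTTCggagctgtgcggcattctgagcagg
Snhg12, chr4:132308648-132308707, plus strand: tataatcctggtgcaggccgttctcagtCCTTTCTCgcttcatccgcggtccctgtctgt
Snhg5, chr9:88522868-88522927, minus strand: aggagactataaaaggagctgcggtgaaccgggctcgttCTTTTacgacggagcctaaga
Snhg1, chr19:8723457-8723516, plus strand: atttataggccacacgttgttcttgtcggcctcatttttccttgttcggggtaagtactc
Snhg15, chr11:6528731-6528790, minus strand: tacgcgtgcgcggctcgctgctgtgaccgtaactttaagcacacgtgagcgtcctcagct

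In the *Gas5* and *Snhg12* sequences the capitals lie across the annotated start, whereas in *Snhg5* they begin further downstream. *Gas5* has another RefSeq start upstream, at chr1:161034601, without a tract. RefSeq gave a promoter for 9 of the 10 named hosts and for none of the starts of *Snhg6*. A tract that began within 5 bases of a start, on the sense strand, was present for 4 of these 9 hosts (*Gas5*, *Snhg3*, *Snhg8* and *Snhg12*), of which 2 are among the 7 with measured levels. The same letters were present for 21.2% of the 27025 genes with a promoter. Within 15 bases, a window chosen after the values were seen, the count was 5 of 9, with *Snhg5* added, against 44.9% of genes. For ribosomal protein genes listed as snoRNA hosts the counts were 7 of 17 within 5 bases and 11 of 17 within 15. The letters TGATGCAA on either strand, a form of the site bound by ATF4 with CEBP partners, were in the promoters (250 bases before to 50 after the start) of 0 of the 9 hosts and in a promoter of 1.03% of all genes. CACGTG, the E-box bound by MYC and MAX, was in the promoter of *Snhg15*, 1 of 9, against 8.09% of genes. These are matches of letters, and binding was not measured.

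All 8 measured hosts were higher in mutant than in control cells. By edgeR's quasi-likelihood test, 8 of 8 passed an adjusted p of 0.05 in that direction, where 7.82% of the 14990 genes tested did so, and 0 were lower, where 7.02% of all genes tested were. The log2 fold change was above 0 in 49.2% of all genes tested. Log2 fold changes ranged from 0.59 for *Zfas1* to 1.12 for *Snhg5* with a median of 0.64, against a median of -0.01 over all genes tested. In 7 of the 8 hosts every mutant library lay above every control library, as was the case for 7.5% of all genes tested. Without control 76 and mutant 74, 8 of 8 passed with a median of 0.83. Both were picked for lying nearest to the other genotype. Leaving them out therefore tends to widen the difference and is no independent check. The reads of the 8 hosts together made up 0.104% ± 0.0116 of the counts in controls and 0.159% ± 0.0171 in mutants, with control libraries between 0.0906% and 0.116% and mutant libraries between 0.134% and 0.177%.

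**Figure D1:**
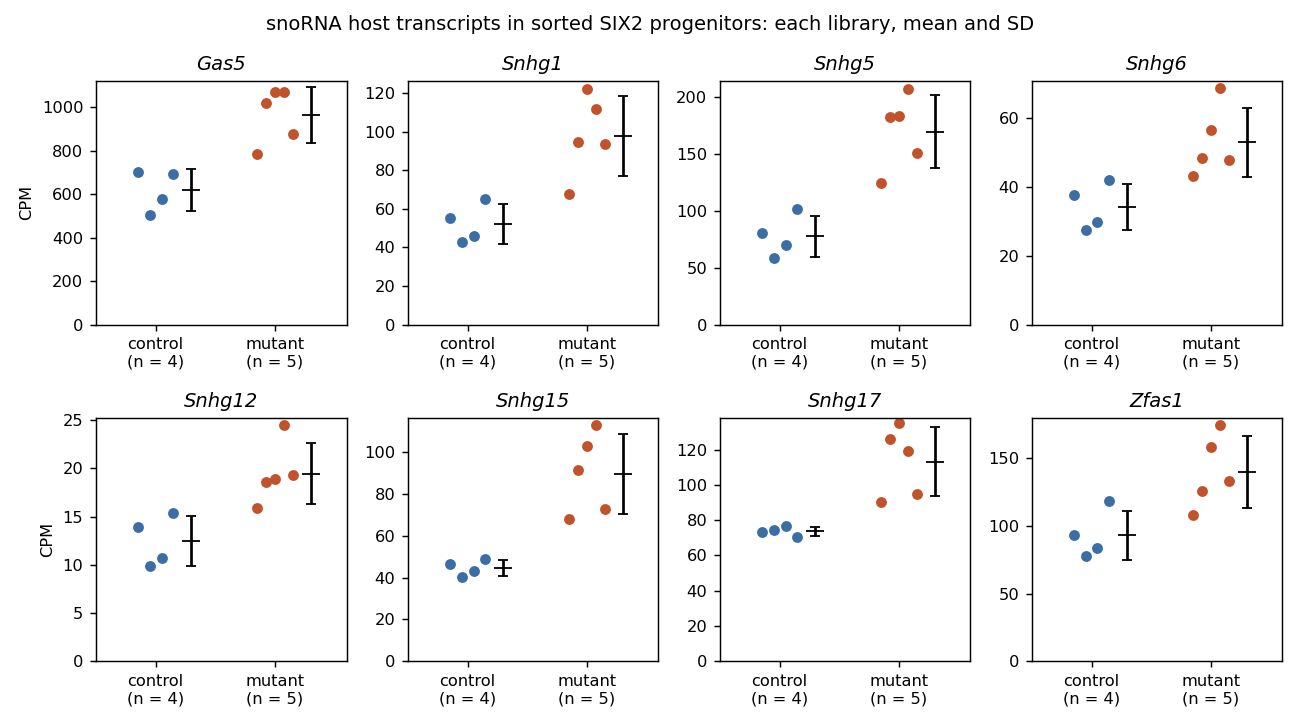
CPM of the 8 snoRNA host transcripts (vertical axes, linear, from 0) in each control (blue) and mutant (orange) library, with bars for mean ± SD. Mutant points lie above the control points in each panel except that of *Zfas1*, where control 76 exceeds mutant 74.

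*Gas5* (chr1:161034422-161038539, plus strand, ENSMUSG00000053332) is the host first known for accumulating in growth-arrested cells, and its exonic RNA has been described as a decoy for the glucocorticoid receptor. Its span holds 10 entries that GENCODE types as snoRNA, of which 2 overlap under the name *Snord80* and 1 is named *Mir5117*. They include *Snord47*, of the C/D box kind that guides methylation. It was by far the most abundant of the hosts, with 704, 504, 578 and 693 CPM in controls 71, 72, 73 and 76 and 785, 1018, 1070, 1069 and 876 CPM in mutants 74, 75, 77, 78 and 79. The lowest mutant library exceeded the highest control library, and the mean rose from 620 ± 95.7 to 964 ± 127 CPM. The log2 fold change was 0.64 ± 0.14 (SE; 95% interval 0.34 to 0.93; edgeR, adjusted p = 0.0103). *Gas5* alone supplied between 56.6% and 63.7% of the reads of the 8 hosts in each library.

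*Snhg5* (chr9:88521050-88522929, minus strand) hosts *Snord50a* and *Snord50b* and showed the largest change of the 8. Controls had 80.6, 59.0, 70.3 and 101 CPM and mutants 125, 182, 183.5, 207 and 151 CPM. Every mutant library was above the highest control, and the mean went from 77.8 ± 18.0 to 169.7 ± 32.0 CPM, a ratio of 2.18. The log2 fold change was 1.12 ± 0.18 (95% interval 0.74 to 1.504; edgeR, adjusted p = 0.00216).

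*Snhg15* (chr11:6525591-6528760, minus strand) hosts 1 annotated snoRNA, *Snora9*, of the H/ACA kind that guides pseudouridylation. Its control libraries lay close together at 46.5, 40.2, 43.1 and 48.9 CPM, and its mutant libraries spread over 67.9, 91.5, 103, 113 and 72.6 CPM. Mutants 74 and 79 were the lowest of their genotype and still above all controls. The mean rose from 44.7 ± 3.79 to 89.5 ± 19.1 CPM, and the log2 fold change was 1.002 ± 0.16 (95% interval 0.67 to 1.34; edgeR, adjusted p = 0.0021).

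*Snhg1* (chr19:8723496-8726442, plus strand) hosts 8 annotated snoRNAs, among them *Snord22*. CPM were 55.2, 42.6, 45.7 and 65.1 in controls and 67.7, 94.5, 122, 111.5 and 93.6 in mutants. The genotypes did not overlap, although mutant 74 and control 76 differed by less than the SD of either group. The mean rose from 52.2 ± 10.2 to 97.9 ± 20.7 CPM and the log2 fold change was 0.91 ± 0.18 (95% interval 0.53 to 1.29; edgeR, adjusted p = 0.00598).

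*Snhg17* (chr2:158353700-158361580, minus strand) is the longest of the 8 and holds 3 annotated snoRNAs. It had the narrowest controls, at 73.1, 74.4, 76.6 and 70.7 CPM, and mutants at 90.4, 126.1, 135, 119 and 94.7 CPM. Again no mutant library fell within the control range. The mean rose from 73.7 ± 2.46 to 113 ± 19.6 CPM and the log2 fold change was 0.62 ± 0.13 (95% interval 0.33 to 0.90; edgeR, adjusted p = 0.00982).

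*Snhg6* (chr1:9941959-9944118, minus strand) hosts *Snord87*. Controls had 37.7, 27.6, 29.8 and 41.9 CPM and mutants 43.2, 48.5, 56.5, 68.6 and 47.9 CPM, so that mutant 74 was only just above control 76. The log2 fold change was 0.63 ± 0.17 (95% interval 0.26 to 0.99; edgeR, adjusted p = 0.0261). The call was lost without control 72, control 73, mutant 77 or mutant 78, with an adjusted p of up to 0.0899.

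*Snhg12* (chr4:132308678-132311024, plus strand) hosts *Snora16a*, *Snora44*, *Snora61* and *Snord99* and was the least abundant of the 8, with 254 to 364 reads per control library and 371 to 498 per mutant library. CPM were 13.9, 9.89, 10.7 and 15.4 in controls and 15.9, 18.6, 18.9, 24.5 and 19.3 in mutants. The genotypes did not overlap, with mutant 74 close to control 76. The log2 fold change was 0.64 ± 0.18 (95% interval 0.25 to 1.04; edgeR, adjusted p = 0.0335). It lost the call without any 1 of controls 71, 72 and 73 and mutants 75, 77, 78 and 79, with an adjusted p of up to 0.112.

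*Zfas1* (chr2:167062934-167065862, plus strand), typed as protein-coding in the deposited table but known as a non-coding RNA antisense to the start of *Znfx1*, holds 3 annotated snoRNAs including *Snord12*. CPM were 93.0, 77.5, 83.4 and 119 in controls and 108, 125.6, 159, 175 and 133 in mutants. It was the only 1 of the 8 hosts in which the genotypes overlapped, through control 76 and mutant 74. The log2 fold change was 0.59 ± 0.16 (95% interval 0.24 to 0.94; edgeR, adjusted p = 0.0287), and the call was lost without control 71, control 72, control 73, mutant 77 or mutant 78 (adjusted p up to 0.0941).

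Per gene, the exact 2-sided permutation test over the 9 libraries gave p = 0.00794, the smallest it can give, for *Snhg5*, *Snhg6*, *Snhg12* and *Snhg15*. For *Gas5*, *Snhg1* and *Snhg17* the exact permutation p was 0.0159, and for *Zfas1* it was 0.0317. With 1 library left out at a time, the number of hosts past the edgeR threshold was 8 without control 76 or mutant 74, 7 without mutant 75 or mutant 79, 6 without control 71, and 5 without control 72, control 73, mutant 77 or mutant 78. *Gas5*, *Snhg1*, *Snhg5*, *Snhg15* and *Snhg17* passed in each of these 9 fits.

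**Figure D2:**
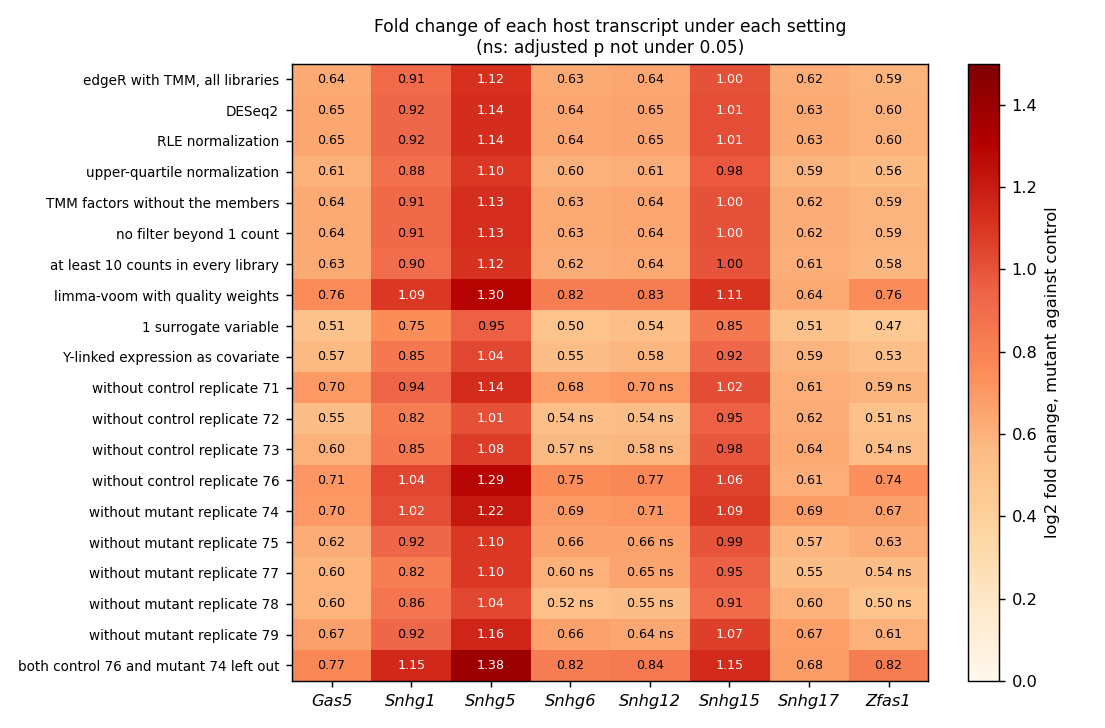
Log2 fold change, mutant against control, of each host (columns) under each of 20 fits (rows), shaded from 0 upward and printed in each cell, with ns where the adjusted p was not under 0.05. All values are above 0, and the cells marked ns are those of *Snhg6*, *Snhg12* and *Zfas1* with 1 library left out.

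Levels were also scaled per 1000 bases of the gene length given with the counts. That length is not a measured transcript length, and the order of the hosts depends on it. For *Snhg1* it is 2719 bases, in a span of chr19:8723496-8726442 that holds 8 snoRNAs. On that scale, control levels were ordered from *Gas5* (242.5 ± 37.4 CPM per 1000 bases) over *Snhg5* (77.5 ± 17.9), *Snhg15* (66.2 ± 5.62) and *Snhg6* (42.0 ± 8.21). *Zfas1* (40.5 ± 7.90), *Snhg1* (19.2 ± 3.74), *Snhg17* (18.9 ± 0.63) and *Snhg12* (13.4 ± 2.78) followed. The control ranges of *Snhg5* and *Snhg15*, of *Snhg6* and *Zfas1*, and of *Snhg1* and *Snhg17* overlapped, so these neighbours did not differ beyond their spread. In mutants the levels were 377 ± 49.8 for *Gas5*, 169 ± 31.8 for *Snhg5*, 133 ± 28.3 for *Snhg15*, 64.9 ± 12.2 for *Snhg6*, 60.9 ± 11.6 for *Zfas1*, 36.0 ± 7.62 for *Snhg1*, 29.0 ± 5.02 for *Snhg17* and 20.8 ± 3.35 for *Snhg12*, all in CPM per 1000 bases. The order of the means was thus the same in both genotypes. The gene lengths of the 8 hosts ran from 675 to 3896 bases. Among the 5861 genes of that length with at least 10 CPM, 7.63% were called higher, with a median log2 fold change of -0.01, a background chosen after the values were seen.

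The hosts also varied together from library to library. Control 72 was the lowest control for 7 of the 8 hosts and control 76 the highest for 6, while mutant 74 was the lowest mutant for 8 of 8 and mutant 78 the highest for 5. On average over the 8 hosts, log2 CPM deviated from the mean of the genotype by -0.24 in control 72 and 0.25 in control 76, and by -0.35 in mutant 74 and 0.28 in mutant 78. Over the 28 pairs of hosts and 9 libraries, Pearson's r of log2 CPM had a median of 0.95 (0.76 to 0.98), and 0.85 once the mean of each genotype was removed (0.18 for *Snhg12* with *Snhg17* to 0.96 for *Snhg6* with *Snhg12*). These correlations are a description, since the genes share libraries and normalization. *Snhg17*, which hardly varied among controls, was in the pair with the lowest r.

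**Figure D3:**
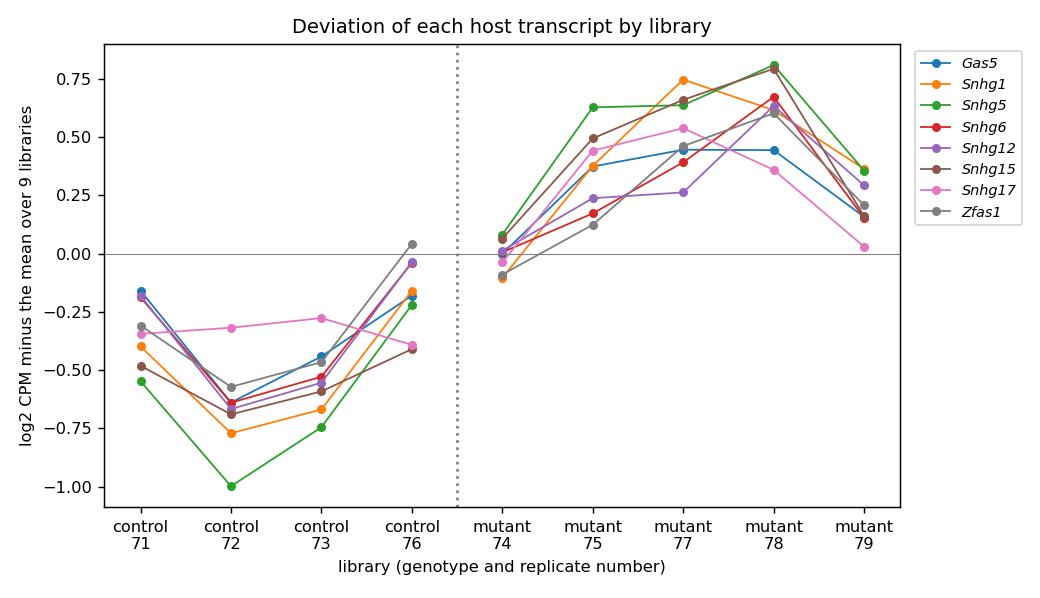
Log2 CPM of each host minus its mean over 9 libraries (vertical axis), by library (horizontal axis, genotypes split by the dotted line). Lines only link the points of 1 transcript and replicates have no order. Of the 8 hosts, 7 have their lowest control value in control 72 and all 8 lie above the mutant mean in mutant 78. On average over the hosts, control 76 is the highest control and mutant 74 the lowest mutant. Control 76 is not the highest control for *Gas5* and is the lowest for *Snhg17*.

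Of the 9341 other genes with at least 10 CPM, those whose log2 CPM followed the mean of the hosts most closely over the 9 libraries were *Rabggtb* (r = 0.99), *Tpt1* (r = 0.99), *Eef1g* (r = 0.99), *2410006H16Rik* (r = 0.98) and *Rpl12* (r = 0.98). *Rabggtb*, which encodes a subunit of the enzyme that attaches lipid anchors to Rab proteins, rose from 76.4 to 139.6 CPM (log2 fold change 0.87 ± 0.17; edgeR, adjusted p = 0.00579). *Tpt1*, which encodes the translationally controlled tumor protein, rose from 571 to 861 CPM (0.59 ± 0.14; edgeR, adjusted p = 0.0138). *2410006H16Rik* is the older name of the host *Snhg29*, *Eef1g* encodes a subunit of translation elongation factor 1 and *Rpl12* a ribosomal protein. *Tpt1* and *Rpl12* are also on the lists of protein-coding snoRNA hosts described below. The likeness was measured on the same libraries as the fold changes and includes the difference between genotypes.

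Some hosts share a start region with a protein-coding gene. *Snhg1* and *Slc3a2*, which encodes the heavy chain of the amino acid transporters with SLC7 partners, lie head to head with starts 127 bases apart. *Slc3a2* (chr19:8706882-8723369) had 236, 204, 222 and 226 CPM in controls and 331, 502, 597, 499 and 529 CPM in mutants. The mutant libraries were all above the controls, and the log2 fold change was 1.15 ± 0.15 (edgeR, adjusted p = 0.000812). *Znfx1*, with its start 81 bases from that of *Zfas1*, had 3.84 CPM in controls and 4.85 in mutants and did not pass (0.34 ± 0.31; edgeR, adjusted p = 0.495). *Zbtb37*, with its start 427 bases from that of *Gas5*, had 3.63 and 5.12 CPM and did not pass either (0.49 ± 0.45; edgeR, adjusted p = 0.49), and without mutant 77, at 11.9 CPM, its log2 fold change was -0.09.

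Strand information was not retained, and reads on overlapping genes cannot be told apart. *Gas5* shares 428 bases with *Zbtb37*, *Snhg6* shares 127 bases with *Mcmdc2* and *Zfas1* shares 82 bases with *Znfx1*, and each of these 3 partners had lower CPM than the host in both genotypes. *Mcmdc2* had 2.16 CPM in controls and 1.40 in mutants (log2 fold change -0.62 ± 0.32; edgeR, adjusted p = 0.209). The span of *Snhg3* on chromosome 4 is overlapped by *Rcc1*, which encodes the exchange factor of Ran and had 57.5 CPM in controls and 48.9 in mutants (-0.23 ± 0.14; edgeR, adjusted p = 0.296), and by *Gm17300*, with 11 to 34 reads in control libraries and 17 to 26 in mutants. For *Snhg5*, *Snhg12*, *Snhg15* and *Snhg17*, no gene of the table overlapped and no head-to-head start lay within 2000 bases.

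Other non-coding snoRNA hosts were mostly higher as well. Of the 13 tested, edgeR called 7 higher and 0 lower, and 11 had a log2 fold change above 0, with a median of 0.67. An annotated snoRNA gene lies in 11 of the 13 spans, but not in those of *Snhg20* and *Meg3*. *Snhg11* and *Snhg16* are typed as protein-coding in the deposited table. *Snhg29* (*2410006H16Rik*) rose from 145 ± 27.8 to 269 ± 53.6 CPM (0.89 ± 0.17; edgeR, adjusted p = 0.00553). *Snhg32* (*1110038B12Rik*) rose from 41.2 ± 10.6 to 74.7 ± 14.1 CPM (0.86 ± 0.19; edgeR, adjusted p = 0.0109).
*Snhg9* (0.946 to 2.56 CPM) and *Rian*, the imprinted host of a C/D box cluster (2.55 to 6.84 CPM), had the largest log2 fold changes of the list at low levels, both 1.43 ± 0.38 with edgeR adjusted p of 0.0253 and 0.0254. The span of *Snhg9* lies inside that of *Rps2* on the other strand, which had 1584 CPM in controls and 2272 in mutants. *Rps2* was itself called higher (0.52 ± 0.15; edgeR, adjusted p = 0.0374), a call lost in 8 alternative fits. Without strand, reads of *Snhg9* and *Rps2* cannot be told apart. Other overlaps of this list were not searched. *Snhg4* (0.76), *Snhg20* (0.51) and *Epb41l4aos* (0.71) were the others that rose, while *Snhg11* (-0.55 ± 0.24; edgeR, adjusted p = 0.126) and *Snhg18* (-0.10 ± 0.15; adjusted p = 0.703) had values below 0 that did not pass. DESeq2 called 7 higher and 0 lower, and limma-voom 9 higher and 1 lower, namely *Snhg11* (-0.65; limma-voom, adjusted p = 0.0322). The call of *Snhg9* was lost with the Y-linked covariate and without control 71, control 72, control 73, mutant 75, mutant 77 or mutant 78. That of *Rian* was lost with limma-voom, without control 71, control 72, control 76 or mutant 75, and without control 76 and mutant 74 together. The number of the 13 that edgeR called was 3 without control 72, 4 without control 73 and 4 without mutant 78.

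Protein-coding hosts had lower median changes. Among ribosomal protein genes listed as snoRNA hosts, 26 of 26 had a log2 fold change above 0 with a median of 0.41, and 11 passed. An annotated snoRNA gene lies in 25 of these 26 spans, and in 21 of the 22 spans of the other coding hosts below. *Rps20* rose from 375 ± 64.3 to 566 ± 104 CPM (0.59 ± 0.16; edgeR, adjusted p = 0.0243) and *Rpl32* from 1013 ± 172 to 1488 ± 258 CPM (0.55 ± 0.15; edgeR, adjusted p = 0.0302). The count of 11 that passed depended on the processing. It was 0 without control 72, control 73, mutant 77 or mutant 78, 4 without control 71 or mutant 79, 5 without mutant 75 and 18 without mutant 74. It was 5 with upper-quartile normalization or the Y-linked covariate, 17 with 1 surrogate variable, 20 without control 76 and mutant 74 together, 16 with DESeq2 and 26 with limma-voom. Among 22 other coding hosts, 8 rose and none fell, with a median of 0.38 and 19 values above 0. They included *Taf1d*, which encodes a subunit of the RNA polymerase I factor SL1 (0.89 ± 0.20; edgeR, adjusted p = 0.0125), *Wdr43*, a ribosome biogenesis factor (0.67 ± 0.11; adjusted p = 0.00324), and *Eif4a2*, an initiation helicase (0.61 ± 0.13; adjusted p = 0.00982). The 8 became 5 without control 71, control 72, mutant 75 or mutant 78, 4 without control 73 and 13 with 1 surrogate variable.

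**Figure D4:**
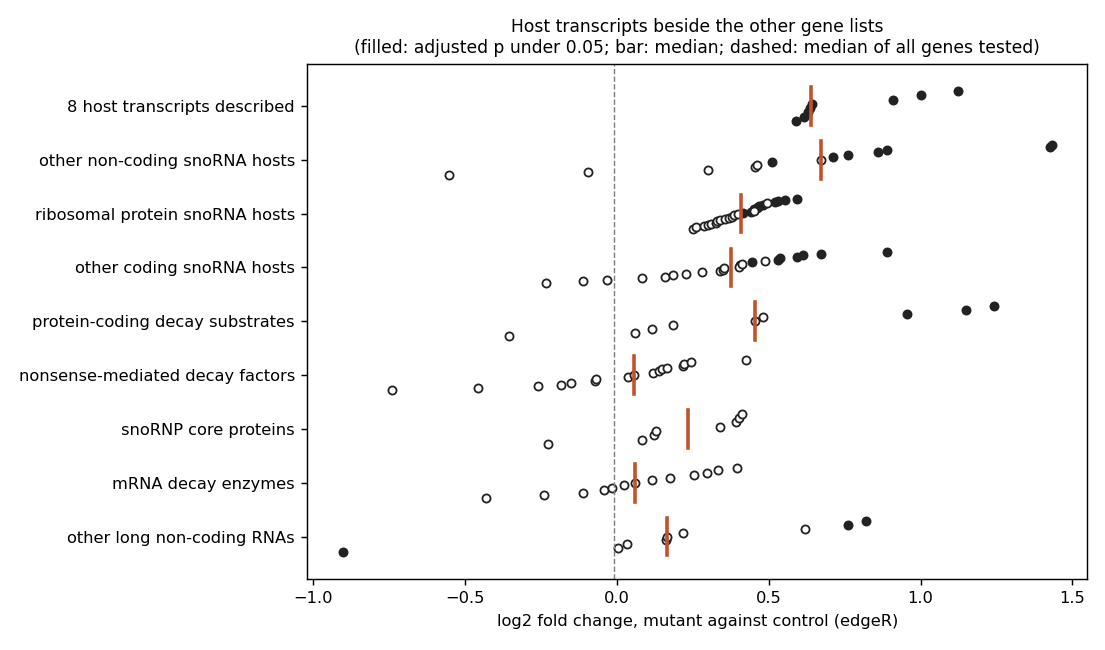
Log2 fold change, mutant against control (horizontal axis), of every tested gene of the host group and of 8 comparison lists (rows), filled where the edgeR adjusted p was under 0.05, with a vertical bar at the median of each list. The 8 hosts lie between 0.59 and 1.12, to the right of the dashed median of all genes (-0.01), and the lists of decay factors and decay enzymes have medians of 0.06.

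Few of the other non-coding RNAs were called higher. Among the 949 non-coding genes tested besides the 8, other hosts included, 29 were called higher, 3.06%, and 50 lower, with a median of -0.18. This set was not matched in level to the 8 hosts, of which *Snhg12* had the lowest control mean, 12.5 CPM. Over all genes tested, 7.82% were called higher, and 9.21% once those averaging under 10 CPM were left out. The part of level in the low share of the 949 was not tested. Of 9 tested from a list of well-known long non-coding RNAs, *Pvt1* (0.82 ± 0.17; edgeR, adjusted p = 0.00811) and *Neat1*, the scaffold of paraspeckles (0.76 ± 0.22; adjusted p = 0.0334), were called higher, and *H19*, an abundant imprinted RNA of the fetus, fell from 499 ± 99.6 to 267 ± 85.6 CPM (-0.90 ± 0.21; adjusted p = 0.0133). The call of *Neat1* was lost without control 71, control 73, control 76, mutant 78 or mutant 79, and without control 76 and mutant 74 together. When hosts were instead taken from the GENCODE annotation, by any snoRNA gene inside the span, a definition chosen after the values were seen, 6 of 19 non-coding hosts outside the 8 (31.6%) and 44 of 216 coding hosts (20.4%) were called higher, with medians of 0.39 and 0.21. The 6 were *Snhg4*, *Snhg9*, *Snhg29*, *Snhg32*, *Epb41l4aos* and *Rian*, named above.

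The factors of nonsense-mediated decay had a median close to that of all genes. Of 17, edgeR called 0 (2 had an unadjusted p under 0.05, and DESeq2, limma-voom and edgeR without control 76 and mutant 74 called 2 each), with a median of 0.06. The 2 were *Smg1*, at 0.44 by DESeq2, and *Dhx34*, at -0.73. *Eif4a3* (0.22 ± 0.14; edgeR, adjusted p = 0.301) and *Rbm8a* (0.14 ± 0.14; adjusted p = 0.552), components of the exon junction complex that marks transcripts for the pathway, had the highest levels. Of 13 enzymes and cofactors of mRNA decay, 0 were called by edgeR (3 with an unadjusted p under 0.05, DESeq2 0, limma-voom 2), with a median of 0.06. Among 9 transcripts known as targets of the pathway, the host *Snhg16* included, edgeR called 3 higher and 0 lower, as did DESeq2, and limma-voom called 4 higher and 1 lower, with a median of 0.46 by edgeR. These were *Atf4*, the transcription factor of the integrated stress response, from 192 ± 17.9 to 453 ± 103 CPM (1.24 ± 0.17; edgeR, adjusted p = 0.000857), *Ifrd1* (1.15 ± 0.16; adjusted p = 0.00117) and *Gadd45a* (0.95 ± 0.21; adjusted p = 0.0116). *Nat9* (-0.36 ± 0.17; adjusted p = 0.176), the 1 that limma-voom called lower (-0.46; adjusted p = 0.0315), *Tbl2* (0.06 ± 0.15; adjusted p = 0.826) and *Upp1* (0.11 ± 0.44; adjusted p = 0.888), also listed as targets, did not pass by edgeR.

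Genes for the proteins that bind snoRNAs had a lower median change than the hosts. Of 8 core proteins, edgeR called 0 (4 with an unadjusted p under 0.05, DESeq2 1, limma-voom 4, and edgeR 3 without control 76 and mutant 74), with a median of 0.23. In that last fit *Nop58* (0.56) and *Snu13* (0.64) were called higher and *Gar1* lower (-0.49; edgeR, adjusted p = 0.0433). *Nop56*, a core protein of C/D box particles, had 323 ± 33.4 CPM in controls and 409 ± 32.2 in mutants (0.34 ± 0.11; edgeR, adjusted p = 0.0556). *Nop56*, *Nop58* and *Dkc1* are also on the list of other coding hosts above. Of 10 assembly factors, *Nufip1* rose from 50.9 ± 0.955 to 78.3 ± 8.89 CPM (0.62 ± 0.11; edgeR, adjusted p = 0.00478) and *Pih1d1* fell from 76.9 ± 12.1 to 55.3 ± 2.95 CPM (-0.48 ± 0.12; adjusted p = 0.0201). Both encode proteins of the R2TP chaperone route, and the call of *Pih1d1* was lost without control 71, control 73 or mutant 78.

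Regulators of TOP mRNA translation had values on both sides of 0. Of the 6 tested, 3 had a log2 fold change above 0 and edgeR called 2, both higher. *Eif4ebp1*, which encodes the mTORC1 target that holds eIF4E, rose from 135 ± 29.7 to 372 ± 56.1 CPM (1.46 ± 0.17; edgeR, adjusted p = 0.000364), and *Larp1*, which encodes the protein that binds the TOP motif, rose from 71.4 ± 14.0 to 114 ± 27.2 CPM (0.68 ± 0.18; adjusted p = 0.0257). The call of *Larp1* was lost without control 71, control 73 or mutant 79, and without control 76 and mutant 74 together. *Eif4ebp2*, of the same family as *Eif4ebp1*, had 36.0 CPM in controls and 25.9 in mutants (-0.47 ± 0.28; edgeR, adjusted p = 0.273). It was called lower by limma-voom (-0.78; adjusted p = 0.0243) and by edgeR without control 76 and mutant 74 (-0.93; adjusted p = 0.00347). The list had 5 calls with limma-voom, 3 higher and 2 lower, and 4 without both libraries. Of 8 genes of the eIF2 branch, edgeR called 3, all higher, namely *Ddit3* (1.67 ± 0.17; edgeR, adjusted p = 0.000271), *Atf4*, and *Ppp1r15b*, which encodes a targeting subunit of the eIF2 phosphatase (1.17 ± 0.17; adjusted p = 0.00117). None of the 4 eIF2 kinases passed by edgeR, with log2 fold changes from -0.59 ± 0.21 for *Eif2ak2* (adjusted p = 0.0713) to 0.06 ± 0.10 for *Eif2ak1* (adjusted p = 0.728). *Eif2ak2*, whose genotypes did not overlap, was called lower by DESeq2 (-0.58; adjusted p = 0.0365) and by limma-voom (-0.63; adjusted p = 0.0194). These are transcript levels, and translation itself was not measured.

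Markers of other cell types moved with the genotype as well. Summed stromal markers ranged from 63.9 to 147 CPM in controls and from 197 to 515 CPM in mutants, with 4 of 6 tested genes called higher, such as *Pdgfra* (4.14 to 52.4 CPM), and mutant 75 was the highest. Without mutant 75, 7 of the 8 hosts passed, with a median log2 fold change of 0.66. The other mutants, at 197 to 330 CPM of stromal markers, still lay above every control. That fit therefore keeps the stromal difference and cannot show the part of stroma in the hosts. Summed ureteric markers ranged from 44.9 to 62.7 CPM in controls and from 27.3 to 48.5 in mutants, with *Ret* and *Wnt9b* too low to be tested. Endothelial markers reached 5.10 CPM in controls and 6.63 in mutants, myeloid markers 4.43 and 35.4, and erythroid markers 2.66 and 2.35. By edgeR, *Pecam1* was called higher, 1 of 3 endothelial markers tested, and lost the call in 7 alternative fits. Of 4 myeloid markers tested, edgeR called 0, although all 4 had an unadjusted p under 0.05, with a median log2 fold change of 2.77. DESeq2 called 2 of them higher and limma-voom 4. Of 3 ureteric markers tested, edgeR called 0, and DESeq2 and limma-voom called 2 each, all lower. Myeloid markers were highest in mutant 77, and no marker of these lists was at 0 in all libraries. Their part in the levels of the hosts was not tested.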

How the data were processed

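RNA of sorted SIX2 progenitors (4 control and 5 mutant libraries) was amplified with a low-input kit and poly(A) selected, without strand, per the labels. The submitters' processing notes name STAR, DESeq2 and mm10, without versions. The counting tool and the annotation release are not given in the sources used here. The deposited counts are reads per gene, as the authors made them. The deposited FPKM equal counts per gene length and summed counts, within 1% for 100% of values, and served only for this check. The authors' group means, log2 fold changes, p-values and adjusted p-values were not used. Identifiers in the lower part of the table do not match their genes, so genes were matched by symbol, and the 3 older symbols by RefSeq synonyms and coordinates. snoRNAs themselves are not analysed here.

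Counts were tested with edgeR 4.0.16 in R 4.3.3 (filterByExpr, TMM, robust quasi-likelihood test, Benjamini-Hochberg adjustment over 14990 genes, threshold 0.05). The SE was taken as |log2 fold change| over the root of F. CPM are counts per 1000000 of the TMM-normalized library size, and log2 CPM used a prior count of 2. Single genes were also compared by a 2-sided exact permutation test. Alternatives were DESeq2 1.42.0, limma 3.58.1 (voom with sample quality weights), other normalizations and filters, 1 surrogate variable (sva 3.50.0), a covariate of Y-linked expression, and libraries left out. Figures were made with matplotlib 3.10.9 in Python 3.11.15.

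The hosts, the other gene lists and the rule for named genes were chosen with earlier results of these data known. The genes named are the hosts, *Uqcrq*, genes overlapping or head to head with a host, the 5 genes most like the hosts, and from each list up to 4 called genes with the largest change in each direction, or the 2 of highest level where none was called. Other list members, such as *Snhg4*, *Nat9*, *Smg1*, *Dhx34*, *Eif4ebp2* and the eIF2 kinases, were named after their values were seen. Promoters and starts are from RefSeq (GRCm38.p6), and host identifiers and snoRNA positions from GENCODE M21 on the same assembly.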

Additional observations from a re-analysis of the deposited data

How the results depend on the processing

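The 8 hosts passed the threshold under DESeq2, limma-voom, both other normalizations, both other filters and TMM factors without the hosts. All 8 also passed with 1 surrogate variable, with the Y-linked covariate, and without control 76 and mutant 74 together. The last choice itself tends to widen the difference, since both libraries lie nearest to the other genotype. The median log2 fold change of the 8 hosts was 0.52 to 0.83 under these alternatives. It was 0.58 to 0.76 with 1 library left out, where 5 to 8 hosts passed. Of the genes in the other lists, cell type markers left out, 38 passed, against 73 with limma-voom, 59 without control 76 and mutant 74, and 17 to 54 with 1 library left out. Over all genes, 2225 passed, against 4868 with limma-voom, 3184 with DESeq2, 3583 without both libraries and 1046 to 3136 with 1 left out. The causes were not tested. Of 962 values of the 51 genes outside the hosts that the rule for named genes picked, markers included, 857 kept direction and call, 68 lost the call, 28 gained it and 9 changed sign. No change of sign was of a called value. *Pnrc2* (-0.02) was at 0.10 with limma-voom and without both libraries, and ranged from -0.098 to 0.066 with 1 library left out, above 0 without control 71, control 76, mutant 74 or mutant 79. With 1 library left out, *Alas2* (-0.19) ranged from -0.35 to 0.0088 (without control 73), *Zbtb37* (0.49) from -0.0885 (without mutant 77) to 0.69 and *Gm17300* (0.19) from -0.011 (without control 71) to 0.58. No paired analysis was possible because the genotypes share no replicate number. Sex, litter and batch are not in the labels. Counting error of the mean reads was 0.695% to 5.78% per host and genotype and the SD between libraries 3.33% to 23.1% of the mean, closest for *Snhg17* in controls (2.37% and 3.33%).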
